A study of Mus musculus with 30 samples.

Results

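The bacteria described here are the stool members of the order Oscillospirales that lie outside its family Oscillospiraceae. They were taken from a table of 16S rRNA gene sequence variants as every variant whose taxon label names the order but not that family and that had reads in at least 1 of 30 libraries. Of 949 bacterial variants with reads, 68 met this rule, out of 181 variants of the order. They belonged to 3 families: Ruminococcaceae with 55 variants, Butyricicoccaceae with 11 and UCG-010 with 2. Together they held 9287 of 1122553 bacterial reads, or 0.827%.

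Stool of female mice was compared between Gpr15l-/- animals (KO) and wild-type animals (WT). Gpr15l encodes a small secreted ligand of the receptor GPR15 that is made by epithelia. Mice entered cages of mixed genotype at weaning, at about 4 weeks of age, with 2 to 7 animals per cage. They stayed together for 4 to 5 weeks and then lived apart by genotype for another 6 weeks. Stool was taken at the start, at the end of the shared housing and at the end of the re-separation, with 5 libraries for each genotype and time. All groups are female, and the mice of both genotypes passed through mixed cages. The labels do not give the strain, the kind of allele, the cage, the litter or which libraries come from 1 mouse, and the p-values therefore reflect no more than the spread among libraries, which may be technical. Age rises with each sampling and cannot be told apart from the housing. The labels number the libraries 1 to 30, and those numbers are used as names below: KO 1 to 5 and WT 6 to 10 at weaning, KO 11 to 15 and WT 16 to 20 after co-housing, KO 21 to 25 and WT 26 to 30 after re-separation.

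Ruminococcaceae and Butyricicoccaceae are strictly anaerobic Clostridia of the hindgut. Many of them break down plant fibre and resistant starch or ferment the products to short-chain fatty acids, butyrate among them, on which colon epithelial cells feed. Ruminococcus is known for cellulose and starch degraders, Anaerotruncus and Butyricicoccus for butyrate formation, and the [Eubacterium] siraeum group for growth on plant polysaccharides. UBA1819, UCG-009 and UCG-010 are names of groups known chiefly from sequence, and Incertae Sedis marks variants of uncertain place within their family. A share of 16S reads is a relative measure: a rise can come from more of these bacteria or from fewer others.

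The libraries held 10491 to 52364 bacterial reads at weaning and after co-housing and 39703 to 73588 after re-separation. No variant of the table had reads both in the first 20 libraries and in the 10 of re-separation, so library set and time cannot be told apart there, and single variants are compared only within a set. The member variants split into 31 of 483 in the first set and 37 of 466 in the second. Mitochondrial reads, a sign of host or food material, made up at most 0.829% of a library, and Bacteroidales at least 16.9% of bacterial reads in every library, as in mouse stool. No library repeated another of its own group: in the 60 comparisons within groups, chi-square over its degrees of freedom ran from 30.9 to 296. Libraries of different groups were not compared in this way. Libraries 1, 5, 11 and 19 stood apart from their groups in an earlier examination of all bacteria, and results that rest on them are also given without them.

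The members were scarce in every group and lowest in WT mice at weaning. At weaning, their share of bacterial reads was 0.114%, 0.464%, 1.47%, 0.214% and 2.29% in KO libraries 1 to 5 and 0.226%, 0.23%, 0.355%, 0.0692% and 0.146% in WT libraries 6 to 10. KO libraries 2, 3 and 5 stood above all WT libraries, library 4 lay within the WT range and library 1 near its lower end. The means were 0.91% ± 0.939 (SD, n = 5) in KO and 0.205% ± 0.107 in WT mice, and the KO mean was 0.565% without library 5. After co-housing the share was 0.88% to 1.91% in KO libraries (mean 1.20% ± 0.423) and 0.786% to 2.84% in WT libraries (1.57% ± 0.771). The WT libraries after co-housing were all above those at weaning, while the KO ranges of the 2 times overlapped. After re-separation the KO libraries held 0.229% to 0.934% (0.528% ± 0.366) and the WT libraries 0.481% to 1.52% (0.877% ± 0.426), again with overlap between genotypes. These sums over members are a description and were not tested.

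**Figure D1:**
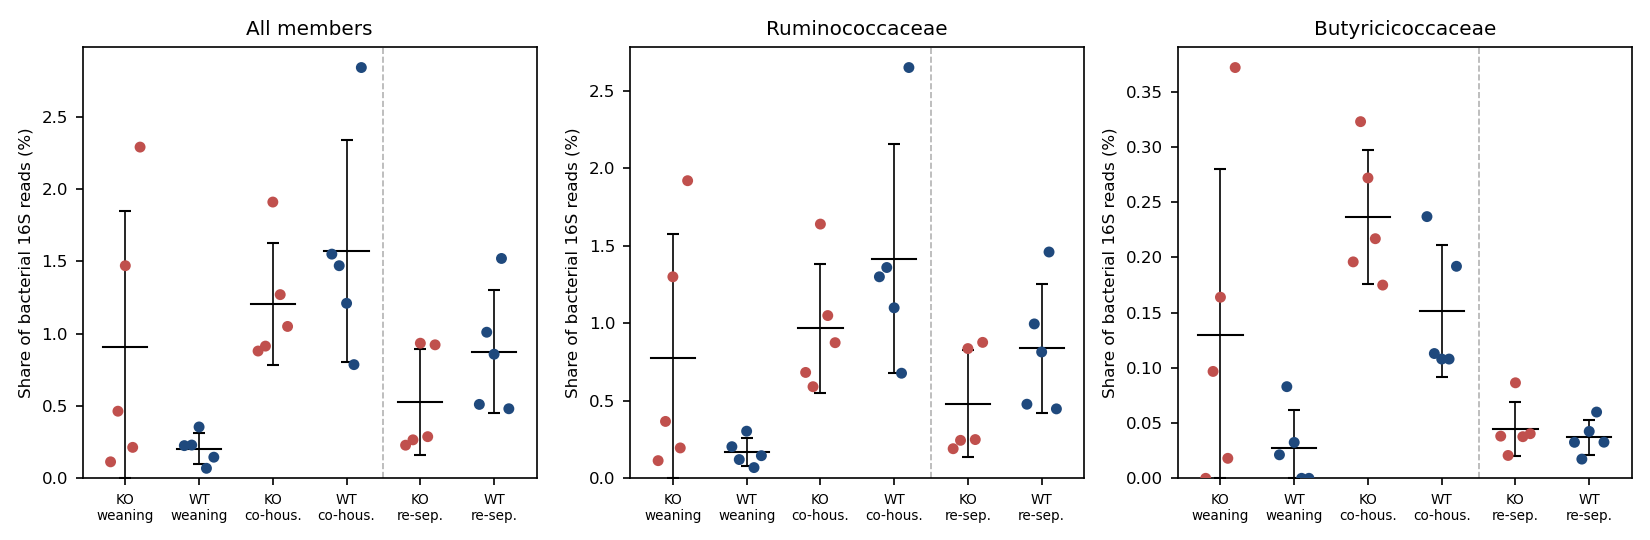
Share of bacterial 16S reads (%, vertical axes from 0) held by all members, by Ruminococcaceae and by Butyricicoccaceae in each library (points; KO red, WT blue), with the group mean and SD (bars, drawn no lower than 0; n = 5). The dashed line separates the re-separation libraries, which are a set of their own. WT libraries at weaning hold 0.0692% to 0.355% for all members and sit below every WT library after co-housing, which hold 0.786% to 2.84%.

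The members took a much steadier part of the class Clostridia than of all bacteria. In KO mice their mean share of Clostridia reads at the 3 times was 7.04% ± 2.82, 4.10% ± 1.54 and 4.90% ± 1.23 (SD, n = 5). In WT mice the same means were 4.99% ± 2.17, 4.92% ± 1.61 and 5.29% ± 2.64. All 6 groups overlapped on this scale. The class itself held 10.6%, 30.6% and 10.7% of bacterial reads at these times in KO mice and 4.35%, 34.2% and 17.4% in WT mice. Libraries 3 and 5, the KO weaning libraries richest in members, also had the most Clostridia of their group, 18.3% and 21.1% against 3.28% to 6.1% in the other KO weaning libraries.

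Ruminococcaceae held 89.7% of the member reads and were found in 30 of 30 libraries. Their share rose in WT mice between weaning and the end of co-housing. It was 0.204%, 0.121%, 0.304%, 0.0692% and 0.146% in WT libraries 6 to 10 and 1.3%, 1.36%, 1.1%, 0.678% and 2.65% in WT libraries 16 to 20. The lowest library after co-housing held more than the highest at weaning. The log2 fold change was 2.29 ± 0.68 (SE; edgeR quasi-likelihood test, Benjamini-Hochberg adjusted p = 0.00678), in a comparison in which 37.1% of the 35 families tested were called. The call was lost only when no filter on low counts was set, where adjusted p was 0.0575. The range of adjusted p over all alternatives was 0.000315 to 0.0575. From weaning to re-separation the WT difference was 1.80 ± 0.67 and lay at the threshold (edgeR adjusted p = 0.0503, 14.3% of families called), with a call in 19 of 39 alternatives.

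In KO mice the family stood at 0.114%, 0.367%, 1.3%, 0.196% and 1.92% at weaning and at 0.683%, 0.591%, 1.64%, 1.05% and 0.875% after co-housing. KO libraries 3 and 5 were already as high at weaning as the group was later. The log2 difference was 0.25 ± 0.65 (edgeR adjusted p = 0.788, 22.9% of families called). The difference between the KO and WT changes was itself -2.04 ± 0.92 and did not pass the test (edgeR adjusted p = 0.165, 2.86% of families called), so the change was not shown to differ between genotypes. KO and WT did not differ beyond the threshold at weaning (log2 1.33 ± 0.66, adjusted p = 0.105), after co-housing (-0.70 ± 0.65, adjusted p = 0.568) or after re-separation (-0.61 ± 0.65, adjusted p = 0.874, all by edgeR). The shares of all families called in these comparisons were 22.9%, 0% and 0%. At weaning the family was called higher in KO by DESeq2 and with library size as the only scaling.

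Of the 9 member genera or unnamed groups, 8 passed the filter of at least 10 reads in at least 3 libraries. The genotypes differed at weaning in 1 of the 8 member genera, Ruminococcus, where 23.6% of all 72 genera tested were called. After co-housing the [Eubacterium] siraeum group was the 1 member genus called, and it was also the 1 genus called among all 72 (1.39%). After re-separation edgeR called 0 of 8 member genera and 0% of all genera, with 1 member genus at an unadjusted p under 0.05, 0 called by DESeq2 and 1 by limma-voom.

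Over co-housing in WT mice, 3 of 8 member genera rose and 0 fell, where 29.2% of all genera were called and 20.8% called higher. Of the 3, UBA1819 passed the filter only through WT libraries taken after weaning, and the [Eubacterium] siraeum group only through libraries of both genotypes taken after weaning. The rises of both therefore describe the pattern that let them in. In KO mice edgeR called 0 of the 8 over the same weeks, with 0 at an unadjusted p under 0.05, 0 by DESeq2 and 1 by limma-voom, although 31.9% of all genera were called. UBA1819 and the [Eubacterium] siraeum group had 0 reads in KO mice at both times and could not change there, which leaves 6 member genera. Over genera with reads, the median log2 change of the members was 2.58 in WT mice (8 genera) and 0.43 in KO mice (6 genera). The medians over all genera were 0.90 and 0.87. The WT median of the members includes UBA1819 (7.09) and the [Eubacterium] siraeum group (5.72), which the KO median lacks. The member medians of the genotypes thus cover unlike sets of genera. With genera at 0 in a group set at their bound, the medians were 1.98 and 0.43 for members and 0.63 and 0.46 for all genera. The scaling bears on these values: with library size alone the WT median over all genera moved by 0.92 on the log2 scale. Genera of the neighbouring family Oscillospiraceae rose in both genotypes, 4 of 7 in WT and 4 of 7 in KO. Of 16 Lachnospiraceae genera, 4 rose in WT, and 5 rose and 1 fell in KO. For the change of the genotype difference over co-housing, 0 of 8 member genera were called by edgeR, DESeq2 or limma-voom, with 1 at an unadjusted p under 0.05, where 4.17% of all genera were called. UBA1819 and the [Eubacterium] siraeum group gave edgeR no usable estimate of that change, so its count bears on the other 6. From co-housing to re-separation and from weaning to re-separation edgeR also called 0 of 8 for that difference (1 and 2 at an unadjusted p under 0.05, 1 and 2 by DESeq2, 0 and 2 by limma-voom), beside 0% and 18.1% of all genera. UBA1819, with 0 reads in KO mice at every time, gave edgeR no usable estimate there either. In WT mice 0 of 8 changed from co-housing to re-separation by edgeR (0 at an unadjusted p under 0.05, 0 by DESeq2, 1 by limma-voom), beside 1.39% of all genera.

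**Figure D2:**
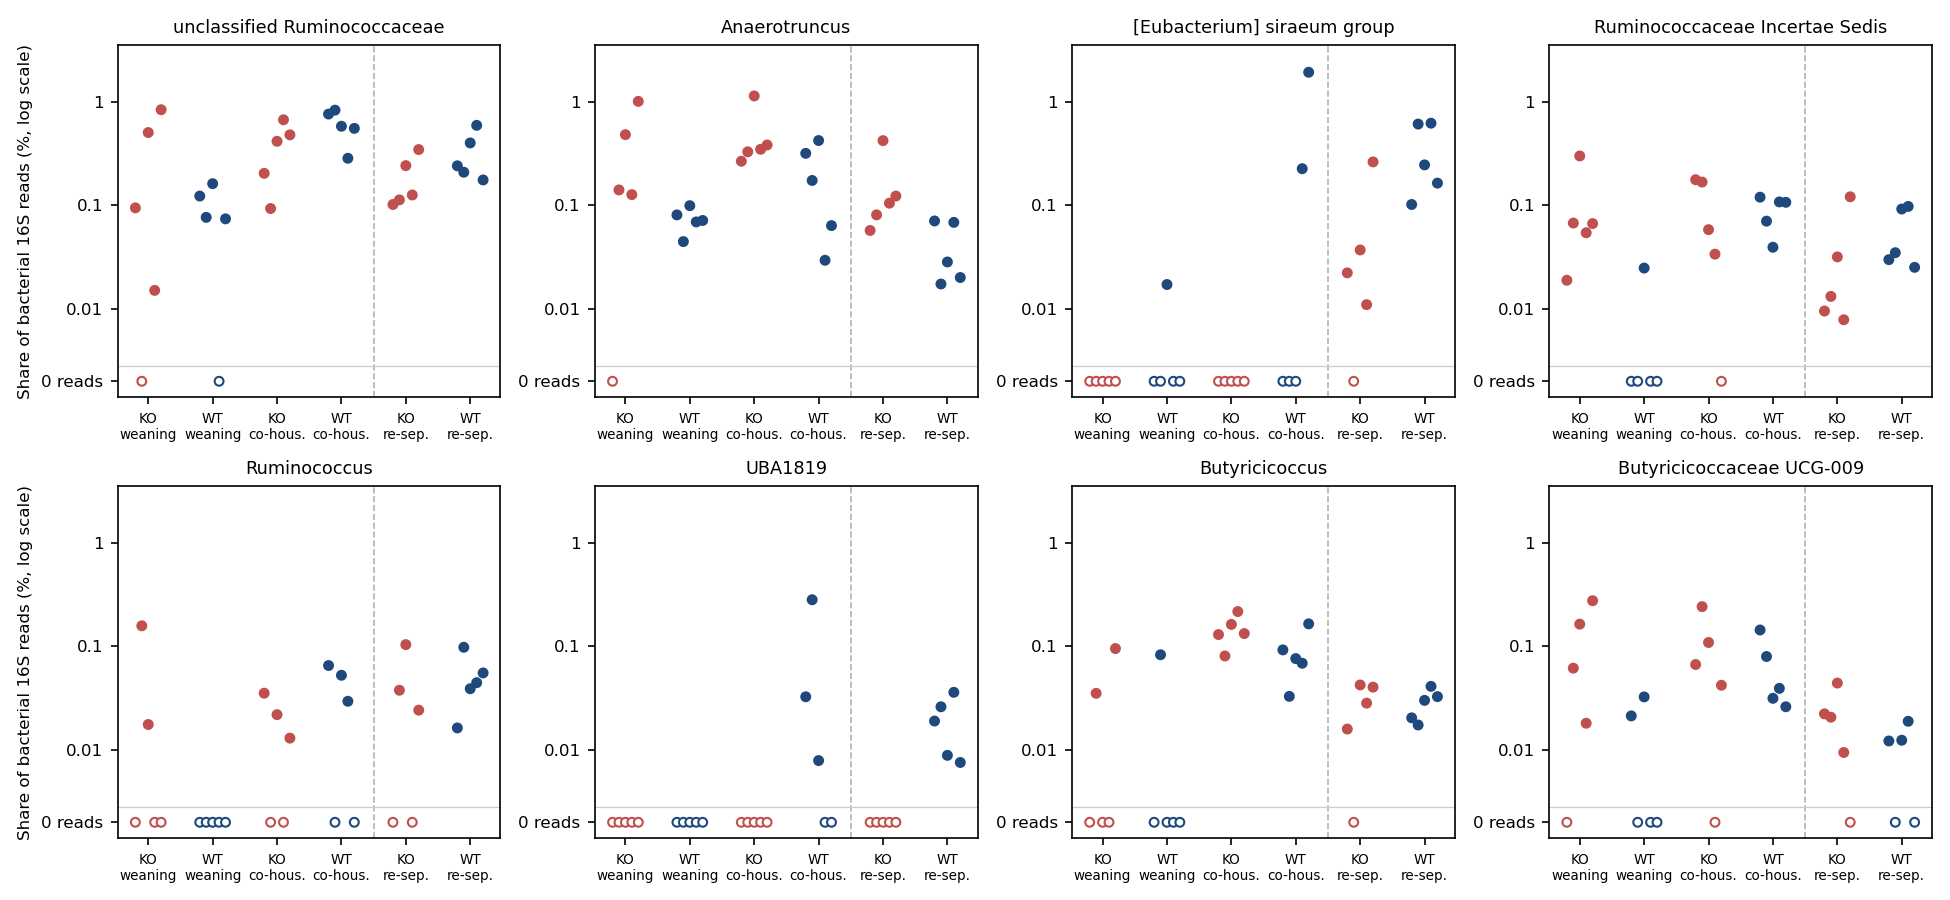
Share of bacterial 16S reads (%, log scale) of the 8 tested member genera or unnamed groups in each library (points; KO red, WT blue); open points below the line mark libraries with 0 reads, and the dashed line separates the re-separation libraries. UBA1819 has reads in 8 of 15 WT libraries and 0 of 15 KO libraries, and the [Eubacterium] siraeum group has 0 reads in all 10 KO libraries before re-separation.

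Variants of Ruminococcaceae without a genus name were the largest group, with 30 variants, reads in 28 libraries and a mean share of 0.311% over the 30 libraries. Of these, 24 carried the genus label uncultured, 2 of them with the species name [Clostridium] leptum, and 6 had no genus label. At weaning their summed share was 0.0946%, 0%, 0.505%, 0.0151% and 0.839% in KO and 0.123%, 0.0766%, 0.162%, 0% and 0.0741% in WT libraries. KO libraries 3 and 5 were again high. After co-housing it was 0.204%, 0.0932%, 0.416%, 0.671% and 0.48% in KO and 0.762%, 0.831%, 0.581%, 0.285% and 0.554% in WT libraries. The WT libraries of the 2 times did not overlap, with means of 0.0873% ± 0.0609 and 0.603% ± 0.213, but the change did not pass the test (log2 1.98 ± 0.99, edgeR adjusted p = 0.106). After re-separation the means were 0.186% ± 0.106 in KO and 0.324% ± 0.173 in WT mice (edgeR adjusted p = 0.822).

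Anaerotruncus was the most widespread named genus, with 4 variants, reads in 29 libraries and a mean share of 0.22%. At weaning it held 0%, 0.141%, 0.482%, 0.127% and 1.01% in KO libraries and 0.0809%, 0.0447%, 0.0993%, 0.0692% and 0.0715% in WT libraries. The WT libraries were close together and the KO libraries ranged from none to the highest. The KO mean was 0.352% ± 0.409 (0.187% without library 5) against 0.0731% ± 0.0198 (log2 1.15 ± 1.02, edgeR adjusted p = 0.418), and with limma-voom the sign turned. After co-housing the KO libraries held 0.267%, 0.329%, 1.14%, 0.348% and 0.383% and the WT libraries 0.318%, 0.174%, 0.423%, 0.0295% and 0.0638% (edgeR adjusted p = 0.546). After re-separation they held 0.0572%, 0.081%, 0.422%, 0.105% and 0.123% (KO) and 0.0707%, 0.0174%, 0.0284%, 0.0685% and 0.0201% (WT). The KO mean was above the WT mean at each of the 3 times, and the ranges overlapped at each. After re-separation the log2 difference was 2.06 ± 1.03 (edgeR adjusted p = 0.606; exact permutation p = 0.0317, or 0.286 adjusted over 72 genera), and the KO mean fell from 0.158% to 0.0916% without library 23.

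The [Eubacterium] siraeum group was all but missing early and reached high shares in some mice later. It had 2 variants, 1 in each library set. KO mice had 0 reads of it in all 10 libraries of weaning and co-housing. WT mice had 0.0172% in library 8 at weaning and 0 reads in the other 4 libraries, then 0.226% in library 19 and 1.93% in library 20 after co-housing and 0 reads in the other 3. The genotype difference after co-housing therefore rests on 2 of 5 WT libraries. It was called (edgeR adjusted p = 0.00287), and the WT mean of 0.431% ± 0.842 was at least 34.8-fold higher than the mean share that 3 reads in each KO library would give, a floor used here for groups with 0 reads. Without library 20 this bound was 4.56-fold. The call was lost with limma-voom and without libraries 1, 5, 11 and 19 (adjusted p at most 0.177 over the alternatives). An exact two-sided permutation test of the shares gave p = 0.444, or 0.83 adjusted over 72 genera. With reads in 2 libraries, both WT, 0.444 is the smallest p this test can give, so it cannot decide the call.

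After re-separation the group was found in 4 of 5 KO libraries, at 0.0223%, 0%, 0.0371%, 0.011% and 0.263%, and in 5 of 5 WT libraries, at 0.102%, 0.61%, 0.246%, 0.622% and 0.164%. The KO values lay below the WT values except for library 25, which fell within the WT range. The genotypes did not differ beyond the threshold there (log2 -2.46 ± 1.44, edgeR adjusted p = 0.744; exact permutation p = 0.0556, or 0.286 adjusted over 72 genera). In KO mice the group was higher after re-separation than after co-housing (at least 5.39-fold, edgeR adjusted p = 0.0132, in a comparison with 19.4% of genera called) and than at weaning (at least 4.26-fold, adjusted p = 0.0072, 27.8% of genera called). In WT mice it was higher after co-housing than at weaning (log2 5.72 ± 1.73, edgeR adjusted p = 0.0124), a call lost without library 20 and with limma-voom (log2 1.70 to 9.96 over the settings), and higher after re-separation than at weaning (5.71 ± 1.73, adjusted p = 0.0256, 12.5% of genera called), a call lost with DESeq2 and without WT library 6, 7, 9 or 10. The comparisons with re-separation mix time with library set, and the KO bounds were 1.42-fold and 1.12-fold without library 25, where the KO mean was 0.0176% in place of 0.0667%. No weaning library held 10 reads of the group (library 8 had 9), so it passed the filter through later libraries alone. Its tests against weaning therefore describe the pattern that let it in and are no separate support for it. The KO libraries with at least 10 reads were all of re-separation, so the KO test against co-housing shares this limit in part.

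UBA1819 was found in WT mice, in 8 of 15 libraries, and in 0 of 15 KO libraries. It had 3 variants and 130 reads in all. It passed the filter through WT libraries alone, 5 of them with at least 10 reads against 0 KO libraries, and none of the 5 was taken at weaning. Its tests between genotypes and against weaning therefore describe the pattern that let it in and are no separate support for it. At weaning neither genotype had reads of it. After co-housing WT libraries 16, 17 and 18 held 0.0326%, 0.282% and 0.00789% and libraries 19 and 20 held 0 reads. Library 17 stood far above the others, and the WT mean of 0.0645% was 0.0101% without it. The rise in WT mice passed the test (at least 5.33-fold, edgeR adjusted p = 0.0186), but the call was lost with limma-voom and without library 17, where the mean lay under the floor. The genotype difference after co-housing was at least 5.2-fold and did not pass (edgeR adjusted p = 0.0602), though it was called without WT library 16, 19 or 20.

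After re-separation the 5 WT libraries held 0.019%, 0.0261%, 0.00886%, 0.036% and 0.00756% of UBA1819 reads, and the KO libraries 0 reads each. The groups did not overlap, but WT libraries 28 and 30 held 5 and 3 reads, the latter at the floor of 3 reads. The WT mean of 0.0195% ± 0.012 was at least 3.86-fold above the KO floor, and 3.04-fold without library 29. The edgeR adjusted p was 0.108, for a genus that passed the filter through WT libraries alone. An exact two-sided permutation test of the shares gave p = 0.00794, the smallest that 252 orderings allow, and 0.286 after adjustment over 72 genera. In KO libraries at that time, 3 reads correspond to 0.00472% to 0.00565%, the upper limits that 0 reads allow.

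Ruminococcus, the genus of fibre degraders that gives the family its name, was represented by 1 variant in each set. At weaning it had 0.158% in KO library 2, 0.0176% in KO library 3 and 0 reads in the other 3 KO libraries and in all 5 WT libraries. The KO group was called higher (at least 2.91-fold, edgeR adjusted p = 0.0282), but the value rests on library 2, without which the call was lost and the KO mean lay under the floor. The call was also lost without WT library 6, 8 or 10 and with limma-voom. An exact two-sided permutation test of the shares gave p = 0.444, or 0.711 adjusted over 72 genera. With reads in 2 libraries, both KO, 0.444 is the smallest p this test can give, so it cannot decide the call. After co-housing 3 of 5 libraries of each genotype held it, at 0.0353%, 0.0219% and 0.013% in KO libraries 11, 13 and 15 and 0.0653%, 0.0526% and 0.0295% in WT libraries 16, 18 and 19. After re-separation it was in 3 of 5 KO libraries, at 0.0242% to 0.104%, and in 5 of 5 WT libraries, at 0.0163% to 0.098%.

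In WT mice Ruminococcus rose between weaning and co-housing (at least 2.44-fold, edgeR adjusted p = 0.0317) and was higher after re-separation than at weaning (at least 4.19-fold, adjusted p = 0.0344). The first of these was at least 1.7-fold and no longer called without library 16. It was also lost without WT library 6, 7, 8 or 10 and with RLE scaling, DESeq2 and limma-voom. The second was lost without library 27 and without each of the 5 WT weaning libraries. KO mice had no called change in Ruminococcus between any of the times.

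The Incertae Sedis variants of Ruminococcaceae, 14 in number, were found in 5 of 5 KO libraries and 1 of 5 WT libraries at weaning. The KO libraries held 0.0189%, 0.0675%, 0.3%, 0.0544% and 0.0667%, and WT library 8 held 0.0248%. KO library 1 lay below that WT library, so the groups overlapped. The log2 difference was 3.19 ± 1.30 and missed the threshold (edgeR adjusted p = 0.0675). An exact permutation test gave p = 0.0159, or 0.19 adjusted over 72 genera. The call was made in 7 of 40 alternatives, most of which leave out 1 library. These were library size only, the stricter filter, DESeq2, limma-voom, and the fits without library 1, without library 8 and without libraries 1, 5, 11 and 19. After co-housing the genotypes had like means, 0.0873% ± 0.0803 in KO and 0.089% ± 0.0333 in WT mice. WT libraries after co-housing, at 0.0394% to 0.12%, were all above those at weaning (log2 3.18 ± 1.30, edgeR adjusted p = 0.0528).

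Butyricicoccaceae, the family of butyrate formers, had reads in 27 libraries. At weaning it held 0%, 0.0968%, 0.164%, 0.0181% and 0.372% in KO and 0.0213%, 0.083%, 0.0325%, 0% and 0% in WT libraries. After co-housing it held 0.196%, 0.323%, 0.272%, 0.217% and 0.175% in KO and 0.237%, 0.113%, 0.108%, 0.108% and 0.192% in WT libraries. All WT libraries after co-housing lay above those at weaning, yet the change did not pass (log2 1.93 ± 1.05, edgeR adjusted p = 0.124). After re-separation both genotypes were low, 0.0447% ± 0.0247 in KO and 0.0371% ± 0.0156 in WT mice.

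Butyricicoccus itself had 9 variants. In KO mice its mean was 0.0261% ± 0.0416 at weaning (0.0088% without library 5), with reads in 2 of 5 libraries, and 0.145% ± 0.0502 after co-housing, with reads in 5 of 5 (log2 2.67 ± 1.36, edgeR adjusted p = 0.123). This change was called by limma-voom and without library 5, with adjusted p of 0.015 to 0.31 over the settings. In WT mice it went from 1 of 5 libraries (0.083% in library 7) to 5 of 5 (mean 0.0871% ± 0.0489; adjusted p = 0.225 by edgeR). UCG-009 of the same family had 2 variants and reads in 22 libraries, with means of 0.104% ± 0.116 (KO) and 0.0107% ± 0.0152 (WT) at weaning, or 0.0611% without KO library 5 and 0.00532% without WT library 8. Its means were 0.0921% ± 0.0929 (0.0546% without library 12) and 0.0642% ± 0.0494 after co-housing. With all libraries, no contrast of either genus was called by edgeR. The family UCG-010, with 29 reads in 5 libraries, did not pass the filter: it had at most 0.0255% of a library, in WT libraries 7, 8 and 16 and KO libraries 23 and 25.

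Single variants gave a finer view of the weaning and co-housing libraries, where 16 of the 31 member variants passed the filter and held 80% of the member reads of that set. Variants are named here by their row in the deposited table, since it gives no sequences. At weaning 2 of the 16 were called between genotypes, where 20.9% of all 292 variants tested were called. Both belong to Ruminococcaceae without a genus name. Row 224 had 0.282% and 0.839% in KO libraries 3 and 5 and 0 reads in the other 3 KO and all 5 WT libraries (at least 18.5-fold, edgeR adjusted p = 0.0375). Without library 5 that bound was 5.83-fold and the call was lost, as it was without library 3, without library 1, without each WT weaning library, and with DESeq2 and limma-voom.

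Row 226 had the opposite pattern at weaning, with 0.0851%, 0.12% and 0.0741% in WT libraries 6, 8 and 10 and 0 reads in the other 2 WT and all 5 KO libraries (at least 3.57-fold higher in WT, edgeR adjusted p = 0.0324). Without library 8 the bound was 2.54-fold and the call was lost, and it was also lost without each of the 5 KO libraries, without libraries 1, 5, 11 and 19 together and with limma-voom. After co-housing row 226 was in 2 of 5 KO libraries, at 0.309% and 0.243% in libraries 14 and 15, and in 5 of 5 WT libraries, at 0.166%, 0.141%, 0.244%, 0.0638% and 0.0987%. Row 224 in turn was in 3 of 5 WT libraries after co-housing, at 0.0925%, 0.0611% and 0.103% in libraries 16, 17 and 19, and in 1 of 5 KO libraries, at 0.0754%. Both variants were picked for a call at weaning, where 1 genotype had 0 reads, and after co-housing each was seen in libraries of both genotypes. Of all bacterial variants seen in WT alone at weaning, 61.6% were found in KO libraries after co-housing. Of those seen in KO alone, 59.2% were found in WT libraries. After co-housing 0 of the 16 variants were called between genotypes by edgeR, DESeq2 or limma-voom, with 3 at an unadjusted p under 0.05, where 1.03% of all variants were called.

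Over co-housing in KO mice 4 of the 16 variants rose and 0 fell, where 27.1% of all variants were called and 22.6% called higher. All 4 had 0 reads in the KO libraries at weaning. Row 205, without a genus name, reached 0.165%, 0.277%, 0.208% and 0.185% in KO libraries 11, 13, 14 and 15 (at least 10.7-fold, edgeR adjusted p = 0.0167). Row 226 rose at least 7.06-fold (adjusted p = 0.0254 by edgeR), or 3.88-fold without library 14, and lost its call without KO library 1, 2, 3 or 4. Row 202, without a genus label, reached 0.0227% to 0.0932% in 4 of 5 libraries (at least 3.12-fold, adjusted p = 0.0485), and row 194, a Butyricicoccus variant, had 0.163% in library 13 alone (at least 2.08-fold, adjusted p = 0.0485).

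Of these, row 205 was called in 28 of 29 alternatives, row 226 in 22 of 28, row 202 in 13 of 28 and row 194 in 8 of 26. No weaning library held enough reads of row 205 to count for the filter, so it passed through co-housing libraries of both genotypes alone. Its calls against weaning therefore describe the pattern that let it in and are no separate support for it. Rows 202 and 194 share this limit in part, since most libraries that let them in were of co-housing. Row 202 lost its call without any 1 of KO libraries 1 to 5 and 12 to 15 or WT library 17, and row 194 without any 1 of KO libraries 1 to 5, 14 and 15 or WT libraries 6, 9, 16, 17 and 18. Without libraries 1, 5, 11 and 19 none of the 4 was called. In WT mice row 205 was in 1 of 5 libraries at weaning (0.0383%) and in 4 of 5 after co-housing, at 0.253%, 0.221%, 0.16% and 0.0987% (log2 3.79 ± 2.12, edgeR adjusted p = 0.211). Row 202 was in 1 of 5 WT libraries at each time. In WT mice edgeR called 0 of the 16 over co-housing, with 6 at an unadjusted p under 0.05, 0 by DESeq2 and 3 by limma-voom, where 0.685% of all variants were called. The change of the genotype difference was called for 0 of the 16 by edgeR, DESeq2 and limma-voom, with 3 at an unadjusted p under 0.05 and 6.16% of all variants called. Rows 195, 220, 225 and 233 had 0 reads in both genotypes at weaning or in 1 genotype at both times. For these rows edgeR gave no usable estimate of that change, so its count bears on the other variants.

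**Figure D3:**
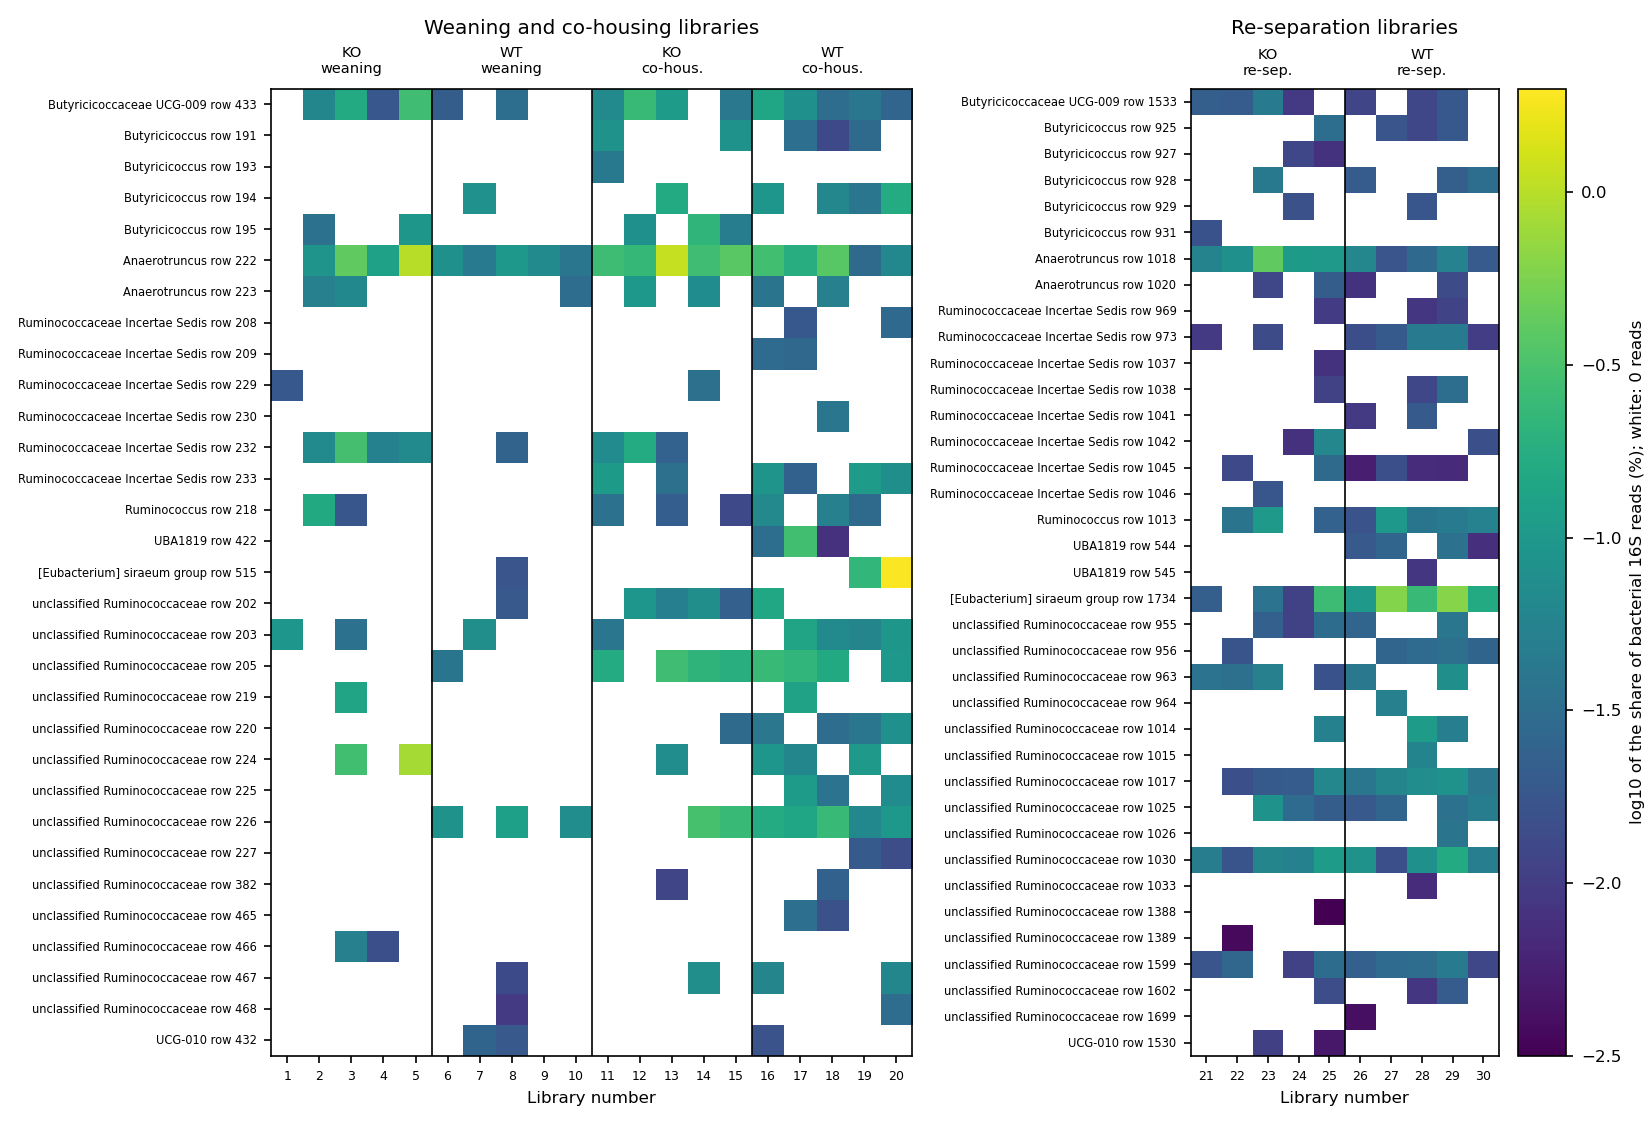
Log10 of the share of bacterial reads (%) of each of the 68 member variants (rows, by genus and row in the table) in each library (columns), with white for 0 reads and black lines between groups. In the left panel the WT co-housing libraries 16 to 20 show the most coloured cells, 12 to 15 variants each, and the Anaerotruncus variant of row 222 has reads in 19 of 20 libraries.

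The most abundant member variant of the first set was row 222, Anaerotruncus, found in 19 of 20 libraries with a mean share of 0.26%. Its KO mean was 0.328% ± 0.412 at weaning and 0.459% ± 0.386 after co-housing, and its WT mean 0.0668% ± 0.0249 and 0.184% ± 0.144, with no called contrast. The KO means rest on library 5, at 1.01%, and library 13, at 1.14%, and were 0.158% and 0.289% without them. Row 515, the [Eubacterium] siraeum variant, came next at a mean of 0.108% from 3 libraries and did not pass the filter. Most member variants were patchier: 9 of the 31 had reads in 2 libraries and 2 in 1 library, and 3 had reads in 10 or more of the 20. Butyricicoccus row 195, chosen after its values were seen, had reads in KO libraries 2, 5, 12, 14 and 15 and in 0 of 10 WT libraries, and it passed the filter through KO libraries alone, so no fold or test is given.

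In the re-separation set 15 of the 37 member variants passed the filter and held 89.1% of its member reads. Between genotypes edgeR and limma-voom called 0 of the 15 and DESeq2 1, with 2 at an unadjusted p under 0.05, where 1.44% of all 278 variants were called. The 5 most abundant were row 1734 of the [Eubacterium] siraeum group, row 1018 of Anaerotruncus, rows 1030 and 1017 without a genus name and row 1013 of Ruminococcus. Row 1018 was at 0.151% ± 0.146 in KO (0.0864% without library 23) and 0.0367% ± 0.0207 in WT mice (log2 2.12 ± 0.81, edgeR adjusted p = 0.258). Row 1017 was at 0.0236% ± 0.0235 in KO (0.0137% without library 25) and 0.0601% ± 0.0211 in WT mice (-1.40 ± 1.03, adjusted p = 0.667). Row 1030, found in 10 of 10 libraries, was at 0.0583% ± 0.0348 and 0.079% ± 0.0547 (adjusted p = 0.832 by edgeR).

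More member variants were seen after co-housing than at weaning, as was so for bacteria at large. Of the 31 in the first set, 18 (58.1%) had reads at both times, 12 (38.7%) after co-housing alone and 1 (3.23%) at weaning alone, beside 59.2%, 30.2% and 10.6% of all 483 bacterial variants of that set. Of the 19 members seen at weaning, 5 were in both genotypes (26.3%, all bacteria 36.5%), 6 in KO libraries alone (31.6%, all bacteria 22.6%) and 8 in WT libraries alone (42.1%, all bacteria 40.9%). Of the 30 seen after co-housing, 15 were in both (50%, all bacteria 63.7%), 4 in KO alone (13.3%, all bacteria 13.4%) and 11 in WT alone (36.7%, all bacteria 22.9%). After re-separation, in the second set, the numbers were 22, 7 and 8 of 37, and 59.5% were in both genotypes beside 68.9% of all bacterial variants. Of the 8 seen in WT alone at weaning, 5 were found in KO libraries after co-housing (62.5%, all bacteria 61.6%), and of the 6 seen in KO alone, 3 were found in WT libraries (50%, all bacteria 59.2%). The differences from all bacteria were not tested. With few reads per variant, 0 reads do not show absence: 3 reads correspond to 0.00408% to 0.0286% of a library.

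After co-housing each WT library held more member variants than any KO library. WT libraries 16 to 20 had 15, 14, 15, 12 and 14 and KO libraries 11 to 15 had 9, 6, 10, 8 and 9. Brought to the 10491 reads of the smallest library, the expected numbers were 13.7 ± 1.09 (SD, n = 5) in WT and 8.27 ± 1.40 in KO mice and still did not overlap. For Ruminococcaceae alone the counts were 9 to 12 in WT and 4 to 8 in KO libraries, and of 16 families with at least 5 variants 12.5% did not overlap in this comparison (0% at weaning and 0% after re-separation). All bacteria together had 218 ± 26.7 expected variants in WT and 167 ± 37.7 in KO mice at that time, with overlap, and 135 and 111 at weaning. At weaning the member numbers were 5.12 ± 2.62 (KO) and 3.99 ± 2.57 (WT), and after re-separation 11.0 ± 4.27 and 14.9 ± 3.94, with overlap between genotypes at both times.

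**Figure D4:**
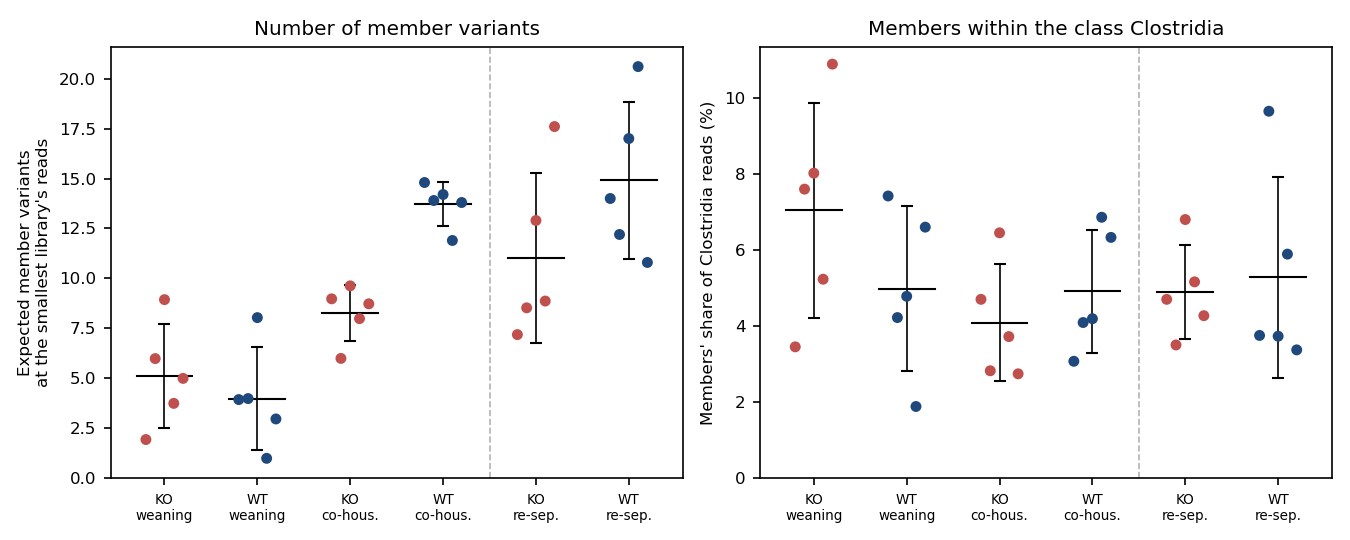
Left: expected number of member variants in each library at 10491 reads. Right: share of Clostridia reads (%) held by the members. Points are libraries (KO red, WT blue), bars are the mean and SD (n = 5), both axes start at 0, and the dashed line separates the re-separation libraries. After co-housing the WT libraries lie at 11.9 to 14.8 variants and the KO libraries at 6.00 to 9.63, while the members' part of the Clostridia overlaps in all groups.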

How the data were processed

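Per the labels' protocols, 16S rRNA gene fragments (V4) were amplified from stool DNA and sequenced in paired ends on an Illumina MiSeq. The deposited table holds whole-number counts of reads per variant and library, not normalized, with taxon names by the authors. R 4.5.1 and limma are listed, with no role stated, per the submitters' processing notes. For denoising, taxonomy and filters, settings were not given in the sources used here. No member count equals 1 and the lowest is 2, so 0 reads may hide filtered reads. Mitochondrial variants (4) were left out of totals and tests.

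Counts were summed by genus and family, uncultured and unnamed variants of a family together. All features with at least 10 reads in at least 3 libraries (72 genera, 35 families, 292 and 278 variants) were tested with edgeR 4.0.16 in R 4.3.3 (TMMwsp, glmQLFit with robust estimation, glmQLFTest, 1 coefficient per group, Benjamini-Hochberg, threshold 0.05). DESeq2 1.42.0, limma-voom 3.58.1, other scalings and filters, and leaving out libraries were alternatives. Scripts were tested on simulated data. The named genera are those called in a contrast and the 3 most abundant; named variants are those called and the 5 most abundant of each set, and every family and genus is listed. Members and lists were chosen with earlier results of these data known. Floors cover counting error only, and PCR reads are not independent molecules. No mapping of libraries to mice or cages was used.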

Additional observations from a re-analysis of the deposited data

Results flagged for a closer look

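Within groups of 5 libraries, 13 of the 65 sets of shares checked had 1 library far from the other 4. The cutoff used gives about 1 in 20 for independent, normally distributed values. These shares are often 0, and families and genera share reads, so no excess over chance can be read from the count. Anaerotruncus stood high in KO library 13 after co-housing (1.14%, others at most 0.383%) and in KO library 23 after re-separation (0.422%, others at most 0.123%). The Incertae Sedis variants of Ruminococcaceae stood high in KO library 3 at weaning (0.3%, others at most 0.0675%) and in KO library 25 after re-separation (0.121%, others at most 0.0318%). The [Eubacterium] siraeum group stood high in WT library 20 after co-housing (1.93%, next 0.226%) and in KO library 25 after re-separation (0.263%, next 0.0371%). Ruminococcus stood high in KO library 2 at weaning (0.158%, next 0.0176%) and UBA1819 in WT library 17 after co-housing (0.282%, next 0.0326%). In 5 sets a single library of a group had any reads: Butyricicoccus in WT library 7 at weaning (0.083%), Incertae Sedis (0.0248%) and the [Eubacterium] siraeum group (0.0172%) in WT library 8 at weaning, and UCG-010, as family and as genus, in WT library 16 after co-housing (0.0163%). For rare bacteria a group with reads in 1 library is set apart in this way by construction. The part of depth, cage or sampling in these values was not tested.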

How the results depend on the processing

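The rise of Ruminococcaceae in WT mice over co-housing kept its direction under all alternatives and its call under all but the fit with no filter (log2 2.40). Among genera, the number of members called between genotypes at weaning (1) was 2 with library size only, the stricter filter or without libraries 1, 5, 11 and 19. It was 3 by DESeq2 and 0 in the fit of only the groups compared. After co-housing (1) it was 0 by limma-voom, in the fit of only the groups compared and without libraries 1, 5, 11 and 19. Exact permutation of shares, added after seeing the data, gave 0 at both times, but for the called genera it could not give a p under 0.444. With only the groups compared, the called genera no longer passed the filter, since fewer libraries were counted. After re-separation (0) it was 1 by limma-voom. Over co-housing in WT mice (3) it was 5 with library size only and 0 with only the groups compared; in KO mice (0) it was 1 by limma-voom. From co-housing to re-separation in WT mice (0) it was 1 by limma-voom, from weaning to re-separation 1 by DESeq2 in WT (2) and 0 without the 4 libraries in KO mice (1). For the change of the genotype difference from co-housing to re-separation (0) it was 1 with no filter and by DESeq2. From weaning to re-separation (0) it was 1 with TMM scaling, library size only, no filter, only the groups compared and without the 4 libraries, and 2 by DESeq2 and limma-voom.

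Among member variants, the calls at weaning (2) were 1 by DESeq2 and with only the groups compared, and 0 by limma-voom and without the 4 libraries. Those of KO mice over co-housing (4) were 2 with RLE scaling, library size only, no filter, the stricter filter, DESeq2, limma-voom and only the groups compared, and 0 without the 4 libraries. The numbers were 1 after co-housing with no filter, 3 in WT mice over co-housing by limma-voom, 1 for the change of the genotype difference with no filter, and 1 after re-separation by DESeq2, each from 0.

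Leaving out 1 library at a time gave these ranges of members called. For genera: 0 to 2 at weaning, 1 to 2 after co-housing, 2 to 4 in WT and 0 to 1 in KO mice over co-housing, 0 to 2 from weaning to re-separation in WT mice, and 0 to 1 for the change of the genotype difference from weaning to co-housing and to re-separation. For variants: 0 to 2 at weaning, 1 to 5 in KO mice over co-housing, and 0 to 1 for the change of the genotype difference. The 1 reversed value among named results was Anaerotruncus between genotypes at weaning with limma-voom (log2 -0.19), which was not called under any alternative. No called member turned sign under another scaling. Settings that left 0 reads in both groups gave no value, as for row 194 without library 13. The causes of these moves were not tested except where the counting of libraries shows them. No paired analysis was possible because the labels do not tell which libraries come from 1 mouse. Libraries of different times were fitted as independent, which the labels do not show them to be. Shares are relative, most members lie near the limit of 3 reads per library, and re-separation differs from the earlier times in library set, which limits the comparisons across times.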
